A study of Homo sapiens with 6 samples.

Results

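The proteasome subunit genes were taken as every gene of the deposited table whose symbol is PSM followed by a family letter from A to G and a number, which left out pseudogenes and gave 46 genes of 33007. PSMA8 and PSMB11 fit the rule by name but were not among the genes of the table. RNA-seq was performed in LM3 cells, an established human hepatocellular carcinoma (HCC) line, after lentiviral delivery of a pLKO.1 vector and puromycin selection. The control group comprised 3 libraries from cells carrying the vector control, and the knockdown group comprised 3 libraries from cells in which ZNF706, a zinc finger protein gene, was stably depleted by a short hairpin RNA (shRNA). The labels gave genotype WT, tissue liver and the cell type HCC for both groups and did not state which shRNA was used or whether the libraries of a group came from separate cultures, so that p-values measure the spread between these libraries, which may be technical. Total counts ranged from 62684076 to 64713764 per control library and from 65861994 to 69057423 per knockdown library.

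The knockdown was present in the libraries. ZNF706 was measured at 51.9, 55.1 and 54.7 CPM (counts scaled to library size by the trimmed mean of M values, TMM) in the control libraries and at 33.5, 30.8 and 32.8 CPM in the knockdown libraries, a fall of 39.9% (log2 fold change -0.73 ± 0.05, SE; adjusted p = 3.7e-05). The groups did not overlap, and a substantial part of the transcript remained in each knockdown library. The liver label was checked with 14 hepatocyte markers, whose summed level was 7.51, 12.29 and 14.63 FPKM (a depth- and length-scaled level) in the control libraries and 6.72, 6.92 and 6.14 FPKM in the knockdown libraries. Of these markers, 10 had a mean under 1 FPKM, and the most abundant was ALB at 2.17 FPKM, so the hepatocyte transcripts were nearly absent. Of 13 hepatocyte markers tested, SERPINA1 and APOB fell, by 63.8% and 49.2%, both at trace level. Their means went from 0.77 to 0.28 FPKM for SERPINA1 and from 0.22 to 0.12 FPKM for APOB. SERPINA1 was called in all 6 fits without a library. The APOB call was lost without control replicate 2, control replicate 3, knockdown replicate 1 or knockdown replicate 3 (adjusted p up to 0.0868). In contrast, the epithelial keratin KRT18 reached 266 FPKM. However, 3 of the 5 epithelial markers (KRT19, EPCAM and CDH1) had a mean under 1 FPKM. Among markers of other cell types, PTPRC, the pan-leukocyte antigen, had 8, 8 and 0 counts in the control libraries and 0 in each knockdown library, and the immune list was led by CD68, a lysosomal protein gene, at 13.8 FPKM. CD68 rose by 55.8% and was the immune marker with a call among the 3 tested; the summed level of the immune list was 10.9, 10.8 and 11.6 FPKM in control and 16.9, 18.5 and 17.1 FPKM in knockdown. Of 4 fibroblast markers tested, 2 rose, the list being led by COL1A1 at 7.73 FPKM (summed level 8.72, 7.90 and 8.23 FPKM in control, 9.77, 9.93 and 9.61 FPKM in knockdown), and of 2 endothelial markers tested, CDH5 fell (summed level 1.79, 1.91 and 2.06 against 1.43, 1.61 and 1.69 FPKM). Their part in the results was not tested.

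Control replicate 1 and knockdown replicate 3 stood apart from the other libraries in some transcripts at trace level. ALB had 189 and 138 counts in these libraries and 587 to 899 counts in the others, GPC3 had 6 and 0 counts against 101 to 166, and COL1A2 had 117 and 119 counts against 0 to 8. APOA1 and APOA2, also at trace level, did not follow this pattern. APOA1 had 122, 150 and 217 counts in control and 0, 4 and 138 in knockdown. APOA2 had 105, 137 and 139 counts in control and 17, 27 and 105 in knockdown. Control replicate 1 and knockdown replicate 3 also held the extremes of the proteasome genes. Knockdown replicate 3 was the highest knockdown library for 33 of the 46 genes (71.7%), against 34.5% of all 18390 genes tested, and control replicate 1 was the lowest control library for 30 genes (65.2%), against 34.4%. Counts of changed genes are therefore also given without these libraries.

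As background, the proteasome is the protease that degrades ubiquitin-tagged proteins. Its core particle is a stack of α rings (PSMA genes) around β rings (PSMB genes), and 3 of the β subunits cut peptides: PSMB6 after acidic residues, PSMB7 after basic residues and PSMB5 after hydrophobic residues. Interferon induces the replacement subunits PSMB9, PSMB10 and PSMB8, which form the immunoproteasome and change the peptides that reach MHC class I. The regulatory cap recognizes, deubiquitinates and unfolds substrates through a base (PSMC ATPases and some PSMD subunits) and a lid (the remaining PSMD subunits). Cells that lack proteasome activity raise subunit genes together through NFE2L1 (also known as NRF1), which binds antioxidant response elements in their promoters.

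The question was whether the subunit genes differ between ZNF706-depleted and control LM3 cells. Of the 46 genes, 13 (28.3%) rose and 2 (4.35%) fell after ZNF706 knockdown (edgeR quasi-likelihood test, adjusted p below 0.05). Over all 18390 genes tested, 10.4% rose and 12.4% fell; among the 8512 abundant genes (mean count 1000 or more over the 6 libraries), which include 44 of the proteasome genes, 13.2% rose and 24.3% fell. All 46 genes passed the filter on low counts. Their median log2 fold change was 0.09, compared with 0.01 over all genes tested and -0.04 over the abundant genes, and 32 of 46 values (69.6%) lay above 0, compared with 51.3% and 41.2%. The changes were small: the largest rise was 25.7% for PSMB6, and the largest fall was 23.8% for PSMB8. The criteria used in the study were also applied, but to this edgeR fit and not to DESeq2 as in the study. These are an unadjusted p below 0.05 and a log2 fold change of at least 0.3 in size. By them, 1 gene rose (PSMB6) and 1 fell (PSMB8), against 9.61% and 5.88% of all genes.

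The TMM-scaled values of the groups did not overlap for 25 of the 46 genes, 20 of them higher (43.5%) and 5 lower (10.9%) in knockdown; the background was 19.7% of all genes tested in each direction. The proteasome genes together made up 0.665%, 0.675% and 0.686% of all counts in the control libraries and 0.725%, 0.742% and 0.758% in the knockdown libraries, so that each knockdown library held a larger share than each control library. In bulk samples, fewer cells of a type and less RNA per cell cannot be told apart. With library size in place of TMM, 25 genes rose and 2 fell, and the counts over all genes moved from 1906 higher and 2286 lower to 2742 higher and 1518 lower.

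**Figure D1:**
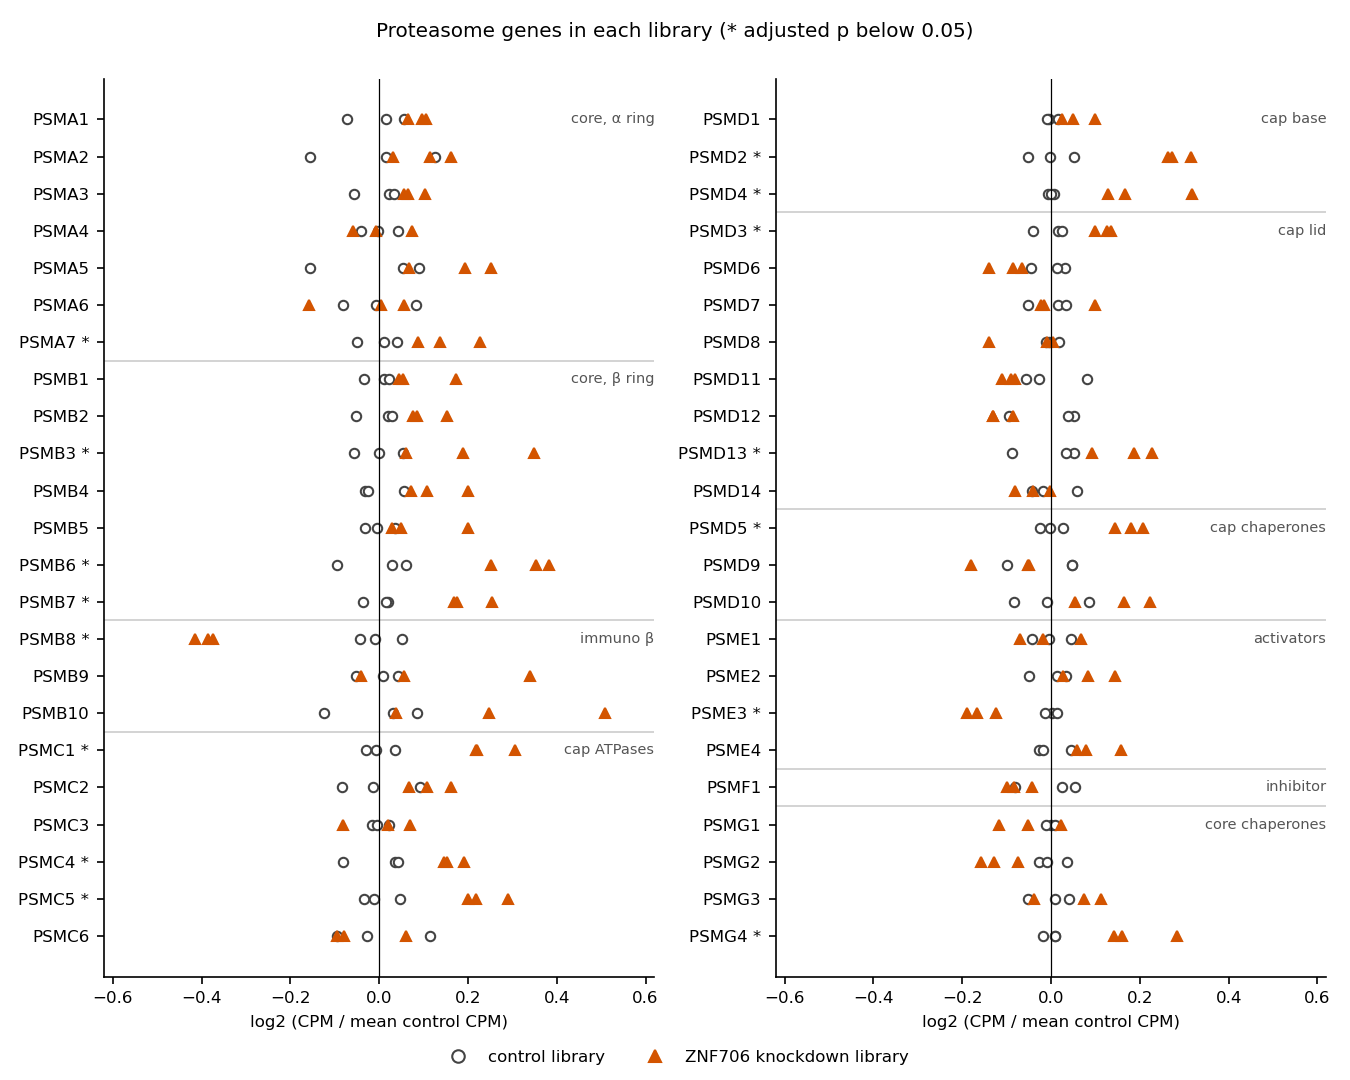
Level of each of the 46 proteasome genes in each library as log2 of its CPM over the mean control CPM (x axis), with genes on the y axis grouped by role. Open circles are control libraries, triangles are ZNF706 knockdown libraries, and asterisks mark the 15 genes with an adjusted p below 0.05; PSMB6, PSMD2 and PSMC1 lie to the right of every control library, and PSMB8 and PSME3 to the left.

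The number of genes that rose depended on single libraries. It was 7 without control replicate 1 (7.74% of all genes tested rose in the same fit), 8 without control replicate 2 (7.30%) and 9 without control replicate 3 (7.14%). It was 13 without knockdown replicate 1 (7.79%), 7 without knockdown replicate 2 (6.01%) and 7 without knockdown replicate 3 (7.52%). Without both control replicate 1 and knockdown replicate 3, 7 rose and 2 fell, against 6.38% and 8.75% of all genes. The share of all genes that rose was thus also below 10.4% in each of these fits. PSMB6, PSMB7, PSMC1, PSMC5, PSMD2, PSMD4 and PSMD5 rose, and PSMB8 and PSME3 fell, in each of the 6 fits with a library left out, and the same 9 genes were called in the fit without both libraries. DESeq2 called 17 genes higher and 3 lower, among them all 15 (6.64% and 7.49% of all genes in the same fit). These shares are over 31287 genes, without the filter on low counts that left 18390 genes in the edgeR test. In numbers, DESeq2 called 2076 genes higher and 2342 lower over all, compared with 1906 and 2286 in the edgeR test. With each library's trend on GC content removed, 16 genes were higher and 3 lower (10.3% and 11.1% of all genes in the same fit). Of the 15 genes, 11 were called in that fit; PSMA7, PSMB3, PSMD3 and PSMG4 were not, at log2 fold changes of 0.12, 0.18, 0.10 and 0.18, respectively.

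**Figure D2:**
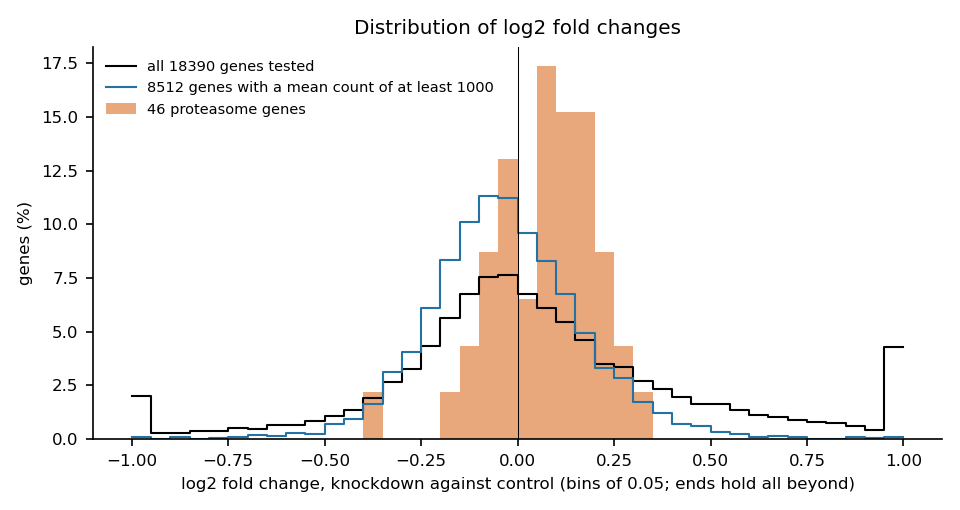
Share of genes (y axis, %) by log2 fold change of knockdown against control (x axis, bins of 0.05) for the 46 proteasome genes (bars), all 18390 genes tested (black line) and the 8512 abundant genes, with a mean count of 1000 or more (blue line). The proteasome genes have their median at 0.09, and the lines have theirs at 0.01 and -0.04.

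Promoter sequences are shown for some of the subunit genes that rose and, beside them, for immunoproteasome genes. Windows from 250 bases before to 50 bases after the start were taken from RefSeq (GRCh38.p14) for 40 of the 46 genes; PSMA7, PSMB1, PSMB6, PSMB7, PSMD4 and PSMG3 had no entry in the table used, and 8 genes had more than 1 start. They were searched on both strands for TGACNNNGC, the core letters of the antioxidant response element, for CCAAT, for the E-box CACGTG and for an interferon element (GAAA, any 2 bases and GAAA again). The antioxidant letters occurred in 15 of 49 promoter windows (30.6%), compared with 13.3% of the 35116 windows in the table; they were in 5 of the 11 windows of genes that rose (PSMB3, PSMC4, PSMC5, PSMD3 and PSMD5) and in 10 of the 35 windows of genes without a call. The interferon letters occurred in 7 of 49 windows (14.3%), compared with 3.57%, and CCAAT in 38.8%, compared with 34.6%. The E-box occurred in 6.12% and in 7.26%, respectively. By call, CCAAT was in 3 of the 11 windows of genes that rose and in 15 of the 35 windows of genes without a call. The interferon letters were in 1 and 5 of these windows, and the E-box in 1 and 1. Of the 3 windows of genes that fell, 0 held the antioxidant letters and 1 held each of the other motifs. PSMD2 and PSMC1, among the clearest rises, held none of the 4 motifs in their promoter windows. The interferon letters were also in PSMG4, which rose, and in PSMA4, PSMB4, PSME1 and PSME2, which had no call. The windows below show 4 of the 5 genes that rose and held the antioxidant letters. They also show the 2 immunoproteasome genes that held the interferon letters, with the letters of the matches in capitals.
PSMB3: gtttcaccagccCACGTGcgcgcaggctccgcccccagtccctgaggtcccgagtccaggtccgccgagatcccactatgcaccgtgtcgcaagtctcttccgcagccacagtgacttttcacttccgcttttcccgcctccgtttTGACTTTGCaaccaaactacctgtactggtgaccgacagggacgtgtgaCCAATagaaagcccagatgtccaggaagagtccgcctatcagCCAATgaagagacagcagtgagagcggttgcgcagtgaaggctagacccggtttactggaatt
PSMC5: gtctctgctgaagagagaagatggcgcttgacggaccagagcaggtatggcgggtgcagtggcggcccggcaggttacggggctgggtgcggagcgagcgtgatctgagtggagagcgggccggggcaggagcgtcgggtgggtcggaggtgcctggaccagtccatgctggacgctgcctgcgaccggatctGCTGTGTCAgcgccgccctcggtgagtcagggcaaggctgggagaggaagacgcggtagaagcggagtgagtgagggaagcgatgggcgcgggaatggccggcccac
PSMD3: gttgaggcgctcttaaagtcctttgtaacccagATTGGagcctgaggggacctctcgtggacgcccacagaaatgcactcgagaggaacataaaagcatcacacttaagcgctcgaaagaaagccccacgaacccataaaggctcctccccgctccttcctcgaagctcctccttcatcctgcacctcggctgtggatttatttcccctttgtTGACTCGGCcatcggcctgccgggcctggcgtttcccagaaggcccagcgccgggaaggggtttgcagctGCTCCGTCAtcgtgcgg
PSMD5: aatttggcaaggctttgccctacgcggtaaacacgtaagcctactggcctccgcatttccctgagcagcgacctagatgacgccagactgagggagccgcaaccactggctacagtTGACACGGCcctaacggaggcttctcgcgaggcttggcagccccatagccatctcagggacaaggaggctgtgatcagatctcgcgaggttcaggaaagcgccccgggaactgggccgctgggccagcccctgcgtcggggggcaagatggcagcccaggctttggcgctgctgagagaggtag
PSMB8: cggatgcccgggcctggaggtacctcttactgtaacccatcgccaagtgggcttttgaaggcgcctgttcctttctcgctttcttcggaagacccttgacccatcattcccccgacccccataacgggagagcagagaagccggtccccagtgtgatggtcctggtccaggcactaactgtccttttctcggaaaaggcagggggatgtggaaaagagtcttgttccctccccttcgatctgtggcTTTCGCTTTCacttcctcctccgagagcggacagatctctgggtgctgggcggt
PSMB10: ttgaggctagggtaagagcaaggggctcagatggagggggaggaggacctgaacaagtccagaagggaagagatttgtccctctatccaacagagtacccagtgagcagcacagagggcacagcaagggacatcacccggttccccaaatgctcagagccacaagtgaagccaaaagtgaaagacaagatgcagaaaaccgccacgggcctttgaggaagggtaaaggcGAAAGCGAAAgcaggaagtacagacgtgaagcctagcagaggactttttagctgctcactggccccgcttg

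The PSMB3 window (chr17:38752491-38752790, plus strand) held the antioxidant letters from position -104 relative to the start, CCAAT at -55 and -13, and an E-box at -238. The PSMC5 window (chr17:63827471-63827770, plus strand, for 1 of the starts that RefSeq lists, inside the gene span of the deposited table) held them on the opposite strand at -57. The other PSMC5 window, not shown, held CCAAT at -10. The PSMD3 window (chr17:39980557-39980856, plus strand) held CCAAT on the opposite strand at -217. The antioxidant letters lay in the PSMD3 window at -37 and, on the opposite strand, at 34. The PSMD5 window (chr9:120842873-120843172, minus strand) held them at -134. In PSMB8 (chr6:32843998-32844297, minus strand, for 1 of the starts that RefSeq lists, inside the gene span of the deposited table) the interferon letters lay on the opposite strand at -4, and in PSMB10 (chr16:67936801-67937100, minus strand) at -21; PSMB8 fell, and PSMB10 had no call. The PSMB9 window, not shown, held no interferon letters but had the antioxidant letters on the opposite strand at -148 and CCAAT at -243. A match is a description of letters and does not show that a factor binds.

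In the α ring, whose subunits gate access to the catalytic chamber, 1 of 7 genes rose and none fell. For this set and the small sets below, the background is 10.4% higher and 12.4% lower over all genes tested. PSMA7 was measured at 180, 188 and 192 CPM in control and at 199, 206 and 219 CPM in knockdown, a rise of 11.1% (log2 fold change 0.15 ± 0.04, SE; adjusted p = 0.0306). The groups did not overlap, but of the 6 fits with a library left out, 1 kept the call, that without knockdown replicate 1, and adjusted p reached 0.115 without control replicate 1. PSMA5 had a log2 fold change of 0.17 ± 0.07 and did not pass the test (adjusted p = 0.0953). Without control replicate 1 the values were 0.10 for PSMA5 and 0.12 for PSMA7. The PSMA5 libraries at 118, 136 and 140 CPM in control overlapped with those at 138, 150 and 156 CPM in knockdown. The log2 fold changes of the 6 α genes without a call ranged from -0.03 to 0.17, and the median of the ring was 0.09.

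In the constitutive β ring, 3 of 7 genes rose, and all 7 had log2 fold changes above 0 (0.09 to 0.33, median 0.13). PSMB6, the caspase-like catalytic subunit (chromosome 17, 4796144 to 4798502, GRCh38), was measured at 93.0, 101 and 104 CPM in control and at 118, 127 and 130 CPM in knockdown. Every knockdown library lay above every control library, and the log2 fold change was 0.33 ± 0.05 (SE; adjusted p = 0.00152). PSMB7, the trypsin-like subunit (chromosome 9), rose by 14.8%, from 153, 160 and 159 CPM to 178, 177 and 188 CPM (adjusted p = 0.00408). PSMB5, the chymotrypsin-like subunit and the main target of bortezomib, was measured at 149, 152 and 156 CPM in control and at 158, 156 and 175 CPM in knockdown. For PSMB5 the groups overlapped, and the 95% confidence interval of its log2 fold change ran from -0.01 to 0.20 (adjusted p = 0.194). Whether the 3 catalytic subunits differed from one another was not tested.

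PSMB3, a non-catalytic β subunit, rose from 114, 118 and 122 CPM to 123, 135 and 150 CPM (adjusted p = 0.0487). Its highest control library nearly met its lowest knockdown library, the call remained in 1 of the 6 fits without a library (that without knockdown replicate 1), and the log2 fold change went from 0.20 to 0.13 without knockdown replicate 3. The β subunits PSMB4 and PSMB2 had non-overlapping groups and adjusted p of 0.0575 and 0.0646.

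Among the immunoproteasome subunits, 1 of 3 fell and none rose. PSMB8, the inducible counterpart of PSMB5 (chromosome 6, 32840717 to 32844679), was measured at 34.7, 37.0 and 35.5 CPM in control and at 26.8, 27.4 and 27.6 CPM in knockdown. The knockdown libraries lay close together and well under the control libraries, with a log2 fold change of -0.39 ± 0.05 (SE; 95% confidence interval -0.51 to -0.27; adjusted p = 0.00101), and the value ranged from -0.42 to -0.37 when a library was left out. PSMB9, the counterpart of PSMB6 and a neighbor of PSMB8 on chromosome 6, was measured at 4.69, 5.003 and 4.89 CPM in control and at 5.05, 4.73 and 6.14 CPM in knockdown. The groups overlapped, and the interval of the log2 fold change, -0.18 to 0.43, lay above that of PSMB8. PSMB10, the counterpart of PSMB7, was measured at 8.66, 10.005 and 9.64 CPM in control and at 9.68, 11.2 and 13.4 CPM in knockdown, with an interval from -0.01 to 0.57 (adjusted p = 0.16). Both PSMB9 and PSMB10 were highest in knockdown replicate 3. The difference in response between PSMB8 and the other inducible subunits was not tested.

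Reads could be shared at this locus, because the strand setting of the counting is not given in the sources used here. PSMB8 and PSMB9 lie on opposite strands and overlap by 544 bases in the coordinates of the table, and the span listed for PSMB9 covers TAP1 on the other strand by 8770 bases. TAP1 had a mean of 4660 counts in control, compared with 303 for PSMB9. Elsewhere, on chromosome 16, PSMB10 shares 1512 bases with AC040162 on the same strand. Mean raw counts of AC040162 were 424 in control and 449 in knockdown, against 689 for PSMB10 over all libraries.

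Per length, each immunoproteasome transcript was a small fraction of its constitutive counterpart. PSMB8 stood at 10.3%, 10.8% and 10.1% of PSMB5 in the control libraries and at 7.55%, 7.81% and 7.00% in the knockdown libraries, and the groups did not overlap. PSMB9 stood at 2.16%, 2.13% and 2.04% of PSMB6 in control and at 1.84%, 1.61% and 2.05% in knockdown, with overlapping groups. PSMB10 stood at 6.19%, 6.86% and 6.64% of PSMB7 in control and at 5.97%, 6.94% and 7.86% in knockdown, and its mean ratio moved up or down depending on whether knockdown replicate 3 was included (log2 ratio 0.08 with it and -0.02 without it). These ratios are descriptions of FPKM values and were not tested.

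**Figure D3:**
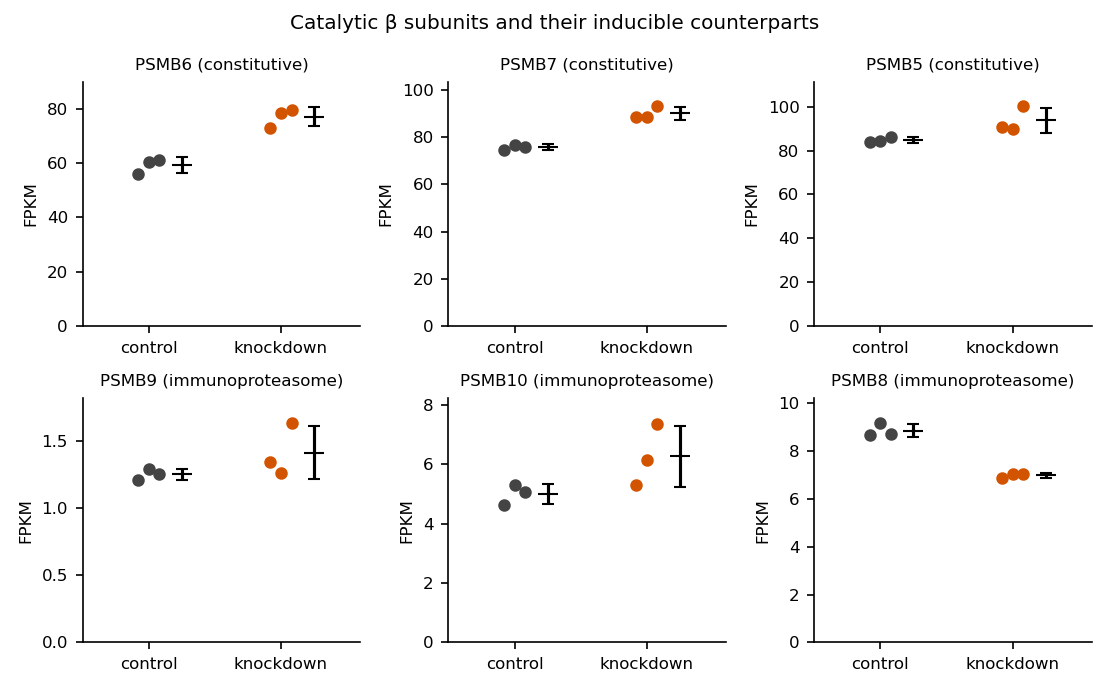
FPKM (y axis, from 0) of the 3 constitutive catalytic β subunits (upper row) and of their inducible counterparts (lower row) in control and knockdown libraries (x axis). Points are libraries and the bar beside them is the mean ± SD (n = 3). PSMB8 falls from a mean of 8.85 to 6.98 FPKM while PSMB6 rises from 59.2 to 77.0 FPKM. FPKM is not TMM-scaled: in the TMM-scaled test PSMB8 fell by 23.8% and PSMB6 rose by 25.7%.

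In the regulatory cap, 7 of 17 base and lid genes rose (41.2%) and none fell. Of the abundant genes, to which all 17 belong, 13.2% rose and 24.3% fell. The calls comprised 3 of 6 ATPases, 2 of 3 non-ATPase base subunits and 2 of 8 lid subunits. PSMD2, the large scaffold subunit of the base that receives shuttle factors (chromosome 3, 184299198 to 184309050), had the smallest adjusted p of the 46 genes. It was measured at 502, 519 and 540 CPM in control and at 624, 628 and 647 CPM in knockdown, a rise of 21.7% (log2 fold change 0.28 ± 0.03, SE; adjusted p = 0.000496). No library of one group reached the other. PSMD4, the ubiquitin receptor of the base, rose by 15.3%, from 166, 168 and 167 CPM to 183, 187 and 208 CPM (adjusted p = 0.0128). Its control libraries were nearly equal, and knockdown replicate 3 was the highest.

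The ATPases form the ring that unfolds substrates. PSMC1 was measured at 160, 158 and 165 CPM in control and at 187, 187 and 199 CPM in knockdown (log2 fold change 0.25 ± 0.04, SE; adjusted p = 0.00145). PSMC5 went from 147, 156 and 150 CPM to 173, 184 and 175 CPM (log2 fold change 0.24 ± 0.04; adjusted p = 0.00215). In both genes the groups were clearly apart. Pseudogenes named after PSMC1, which lie elsewhere in the genome, had counts equal to 4.02% of its own. PSMC1 overlaps NRDE2 on the opposite strand by 4691 bases (mean counts of NRDE2 2407 in control and 2493 in knockdown), and PSMC5 overlaps FTSJ3 by 2861 bases (10156 and 11440). The mean counts of overlapping genes, here and below, are raw and not scaled to library size. Total counts were larger in each knockdown library than in each control library, so a higher raw mean does not by itself show a rise. Without strand, reads in an overlap cannot be told apart. PSMC4 rose from 81.5, 88.3 and 88.8 CPM to 95.4, 95.9 and 98.4 CPM (adjusted p = 0.0193), a call that was lost without control replicate 1 (adjusted p = 0.0629), without knockdown replicate 2 (0.0619) or without knockdown replicate 3 (0.0585). The 3 ATPases without a call had log2 fold changes from -0.04 to 0.11.

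In the lid, the part that holds the deubiquitinase PSMD14, the median log2 fold change was -0.04, and 5 of 8 values lay below 0. PSMD3 was measured at 189, 182 and 190 CPM in control and at 204, 201 and 205 CPM in knockdown, a rise of 8.70% (adjusted p = 0.0276). PSMD13 was measured at 146, 161 and 159 CPM in control and at 165, 182 and 177 CPM in knockdown, a rise of 12.5% (adjusted p = 0.0315). Neither had overlapping groups, but the PSMD3 call was lost in each fit that left out a library (adjusted p up to 0.108, without control replicate 2), and the PSMD13 call remained only without knockdown replicate 1 (adjusted p up to 0.129, without knockdown replicate 2). The 6 lid genes without a call ranged from -0.12 to 0.02; at the lower end PSMD12 was measured at 222, 201 and 221 CPM in control and at 196, 196 and 202 CPM in knockdown, groups that overlapped narrowly (adjusted p = 0.0843). The difference between base and lid was not tested.

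Of the chaperones that assemble the cap, 1 of 3 rose: PSMD5 went from 88.5, 90.4 and 87.1 CPM to 98.0, 102 and 100 CPM, a rise of 13.0% (adjusted p = 0.00585), with no overlap. PSMD5 shares 18095 bases with CUTALP on the opposite strand. CUTALP had a mean of 670 raw counts in control and 935 in knockdown, against 6220 for PSMD5 over all libraries. Of the chaperones that assemble the core, 1 of 4 rose. PSMG4 was measured at 27.8, 27.8 and 27.3 CPM in control and at 30.5, 30.9 and 33.7 CPM in knockdown (adjusted p = 0.0447), a call that was lost in all 6 fits without a library, with adjusted p up to 0.137 without knockdown replicate 3. PSMG4 shares 23023 bases with SLC22A23 and 328 bases with TUBB2B, both on the opposite strand. Mean raw counts of SLC22A23 were 430 in control and 522 in knockdown. Those of TUBB2B were 164 and 249, against 1956 for PSMG4 over all libraries. PSMG2, which pairs with PSMG1, was measured at 66.6, 67.4 and 69.5 CPM in control and at 64.4, 62.1 and 60.8 CPM in knockdown, did not overlap and had an adjusted p of 0.0522.

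Of the activators that cap the core without ATP, 1 of 4 fell and none rose. PSME3, the subunit of the nuclear activator PA28γ, was measured at 300, 296 and 302 CPM in control and at 267, 275 and 263 CPM in knockdown. The control libraries were close together and lay above every knockdown library, with a fall of 10.5% (log2 fold change -0.16 ± 0.03, SE; adjusted p = 0.00576). PSME3 overlaps BECN1 on the opposite strand by 8948 bases, and BECN1 had a mean of 2816 raw counts in control and 3199 in knockdown. The interferon-inducible activators PSME1 and PSME2 did not pass the test, nor did PSME4; the 3 log2 fold changes ranged from -0.01 to 0.10. PSMF1, the proteasome inhibitor PI31, was measured at 79.4, 72.3 and 77.8 CPM in control and at 71.4, 74.3 and 72.2 CPM in knockdown, with overlapping groups and an interval from -0.17 to 0.02.

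Levels differed far more between the genes than between the groups. On the per-length FPKM scale, the mean of the control libraries ranged from 1.25 ± 0.04 FPKM (SD, n = 3) for PSMB9 to 92.0 ± 2.13 FPKM for PSMA7, with a median of 29.8 FPKM over the 46 genes. The constitutive β genes lay between 52.5 and 87.1 FPKM, the α genes between 19.8 and 92.0 FPKM and the lid genes between 8.93 and 34.7 FPKM. At the top of the order PSMA7, PSMD2 (90.4 ± 2.47 FPKM) and the ATPase gene PSMC3 (90.2 ± 0.456 FPKM) lay within their spread of each other. The summed level of the 14 core genes was 813, 838 and 850 FPKM in control and 910, 942 and 990 FPKM in knockdown, 13.6% higher with no overlap. The summed level of the 17 cap genes was 593, 597 and 610 FPKM in control and 650, 667 and 683 FPKM in knockdown, 11.2% higher with no overlap. On the TMM-scaled CPM scale the core sum was 7.42% higher and the cap sum 7.21% higher. The 3 immunoproteasome genes summed to 14.5, 15.7 and 15.0 FPKM in control and 13.5, 14.4 and 16.0 FPKM in knockdown, and the groups overlapped on this scale. On the TMM-scaled CPM scale they summed to 48.0, 52.0 and 50.1 in control and 41.6, 43.3 and 47.1 in knockdown, with no overlap (log2 ratio -0.19, compared with -0.04 on the FPKM scale). The CPM log2 ratio was 0.10 for the core and 0.10 for the cap, compared with 0.18 and 0.15 on the FPKM scale. FPKM values are not TMM-scaled, so their rises include a shift between the scales. PSMA4, for example, went from a mean of 441 to 442 CPM but from 54.3 to 56.4 FPKM. With library size in place of TMM, the median log2 fold change over all genes was 0.06, compared with 0.01.

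Genes that work with the proteasome but lie outside the name rule were examined as 4 lists. Of 43 tested, 4 rose and 14 fell, and their median log2 fold change was -0.09, in contrast to 0.09 for the subunit genes; over all genes tested 10.4% were higher and 12.4% lower. Of these genes, 40 belonged to the abundant genes, and 4 of the 40 were higher (background 13.2%) and 13 lower (32.5%, background 24.3%). DDI1 was at 0 counts in every library and was not tested. The KEGG annotation in the table placed 39 of the 46 subunit genes in the proteasome pathway together with ADRM1, POMP and SEM1, none of which had a call. Among 12 partner genes, none rose, and the proteasome-bound ubiquitin ligase UBE3C fell by 12.7% (adjusted p = 0.0054).

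Among 12 regulators, all of them abundant genes, 7 fell (58.3%) and 1 rose (8.33%). Of all abundant genes, 24.3% fell and 13.2% rose. NFE2L1, the transcription factor of the subunit genes, was measured at 312, 308 and 312 CPM in control and at 278, 274 and 286 CPM in knockdown, a fall of 10.1% (adjusted p = 0.00673). DDI2, the protease that cleaves NFE2L1 into its active form, was measured at 125, 119 and 119 CPM in control and at 101, 102 and 93.3 CPM in knockdown, a fall of 18.3% (adjusted p = 0.00141). NGLY1, which deglycosylates NFE2L1, was measured at 46.3, 51.9 and 46.8 CPM in control and at 53.3, 56.1 and 58.6 CPM in knockdown (adjusted p = 0.0221). Thus, of these NFE2L1-processing enzymes, the protease transcript fell and the deglycosylase transcript rose. The NGLY1 call was lost without control replicate 1 (adjusted p = 0.0846), without control replicate 3 (0.0918), without knockdown replicate 2 (0.075) or without knockdown replicate 3 (0.0806). SYVN1 and SEL1L, the ligase and adaptor that turn over NFE2L1 at the endoplasmic reticulum, fell by 14.7% and 16.3%. NFYA and NFYB, subunits of the factor that binds CCAAT, fell by 15.9% and 15.2%, and STAT3 fell by 12.7%; the NFYB call was lost in 5 of the 6 fits without a library, that without knockdown replicate 3 being the exception, with adjusted p up to 0.114 without knockdown replicate 2. NFYC, the remaining subunit of that factor, was measured at 43.7, 43.9 and 49.996 CPM in control and at 50.2, 48.2 and 46.2 CPM in knockdown, with overlapping groups and no call (log2 fold change 0.07 ± 0.06, SE; adjusted p = 0.451).

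Among 9 ubiquitin and shuttle genes tested, 1 rose and 2 fell, against 10.4% and 12.4% of all genes tested. UBA1, the main ubiquitin-activating enzyme, was measured at 423, 442 and 454 CPM in control and at 483, 492 and 479 CPM in knockdown (a rise of 10.2%; adjusted p = 0.0164), whereas UBA6, the alternative activating enzyme, fell by 11.3% (adjusted p = 0.0221). The UBA1 call was lost without control replicate 1 (adjusted p = 0.0663), control replicate 2 (0.0548) or knockdown replicate 2 (0.0797), and the UBA6 call without control replicate 1 (0.07) or knockdown replicate 1 (0.0689). UBQLN2, a shuttle factor, fell by 19.9% (adjusted p = 0.00132). The ubiquitin genes UBB and RPS27A had no call.

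Among 10 genes of immune regulation and MHC class I peptide loading, 2 rose and 4 fell. Of all genes tested, 10.4% rose and 12.4% fell, and of the abundant genes 13.2% rose and 24.3% fell. TAP1, a subunit of the peptide transporter and a neighbor of PSMB8 and PSMB9, was measured at 72.4, 81.5 and 70.4 CPM in control and at 55.9, 55.8 and 59.1 CPM in knockdown, a fall of 23.8% (adjusted p = 0.00113). TAP2, the other part of the transporter, fell by 11.0% (adjusted p = 0.00878). B2M, the light chain of MHC class I, was measured at 1313, 1423 and 1390 CPM in control and at 958, 1033 and 1123 CPM in knockdown, a fall of 24.5% (adjusted p = 0.000752). The other peptide-loading genes of the list, TAPBP, ERAP1 and ERAP2, had overlapping groups and no call. RFX5, a factor that binds MHC promoters, was measured at 64.1, 64.9 and 64.5 CPM in control and at 83.8, 81.7 and 81.8 CPM in knockdown, a rise of 27.8% (adjusted p = 0.000142). NLRC5, the MHC class I coactivator, rose by 19.1% (adjusted p = 0.0411), and IRF2 fell by 27.6% (adjusted p = 0.0365), but of the 6 fits with a library left out, 5 lost each call. NLRC5 was called without control replicate 2 and IRF2 without knockdown replicate 3, and their adjusted p reached 0.135 without knockdown replicate 1 and 0.13 without knockdown replicate 2, respectively. IRF1, an interferon-responsive activator of the immunoproteasome genes, had no call.

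**Figure D4:**
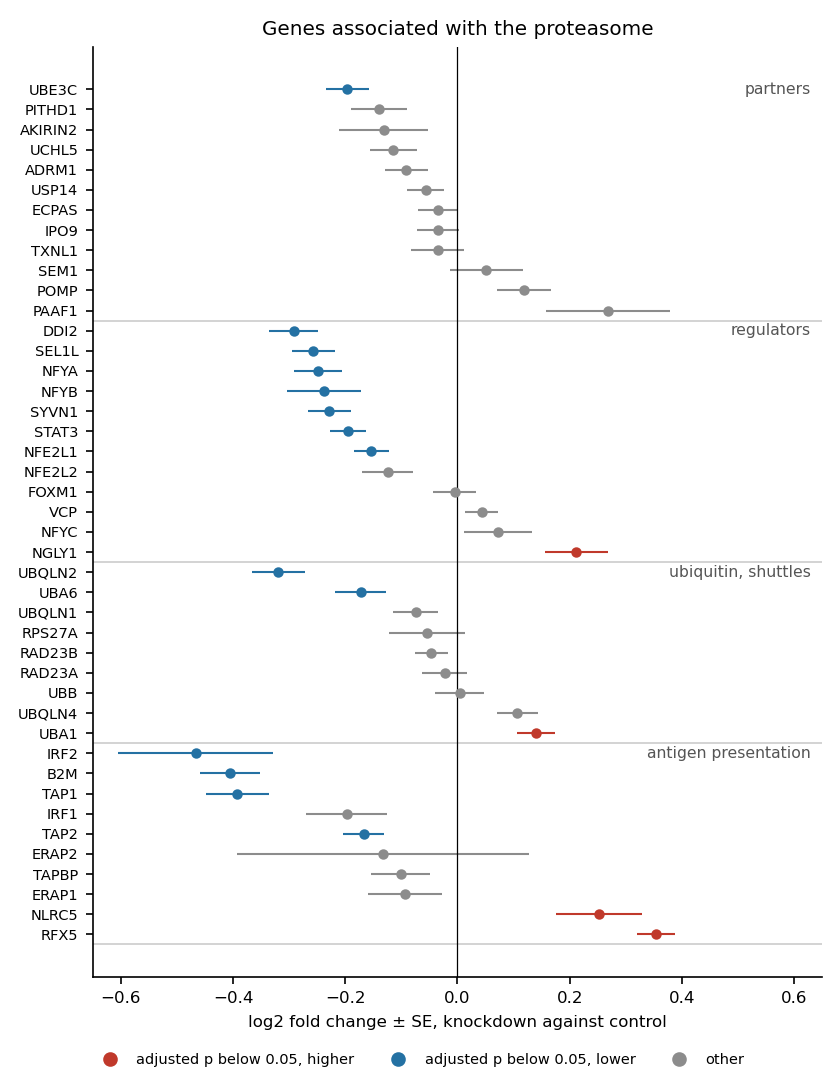
Log2 fold change of knockdown against control (x axis, points ± SE) of the 43 tested genes associated with the proteasome, grouped as partners, regulators, ubiquitin and shuttle genes, and antigen presentation genes. Red points rose, blue points fell and gray points had no call; DDI2, UBQLN2, TAP1 and B2M lie to the left of 0, and RFX5, NLRC5 and NGLY1 to the right.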

How the data were processed

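RNA-seq libraries of 6 LM3 samples (3 control, 3 ZNF706 knockdown) were analysed. The authors deposited 1 table with a raw count and an FPKM value per gene and library; its own fold changes and p-values were not used. Per the submitters' processing notes, cutadapt 1.9 and FastQC were applied and the build was GRCh38; the study names HISAT2 and DESeq2. The counting program, annotation and strand setting are not given in the sources used here.

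Low counts were removed over the whole table by filterByExpr, TMM factors were computed, and edgeR 4.0.16 gave the main test (quasi-likelihood, 2-sided, Benjamini-Hochberg adjustment over 18390 genes, threshold 0.05). Alternatives were DESeq2 1.42.0, other scalings and filters, limma 3.58.1 on log2(FPKM + 1) or log2(FPKM + 0.1) with a mean of at least 1 FPKM, a replicate block and each library left out. Removing each library's GC trend and leaving out control replicate 1 with knockdown replicate 3 were chosen after seeing the data. Scripts were tested on simulated data. The members and gene lists were chosen with earlier results of these data known. Values in every library are given for members with a call, the catalytic subunits and their inducible counterparts, and the member with the largest change in each set; PSMD12 and PSMG2, and the adjusted p of PSMB2 and PSMB4, were added after their values were seen. With 3 libraries against 3, an exact permutation test of 1 gene cannot go below p = 0.1. Replicates differed by more than sampling noise. A few genes of the lists outside the subunit genes are not reported here.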

Additional observations from a re-analysis of the deposited data

How the results depend on the processing

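PSMB8 was called lower under every setting tried, and the 9 genes named in the report as called in each fit without a library kept their direction throughout. Subunit genes higher in knockdown numbered 25 with library size alone, 8 with no filter on low counts, 25 and 24 with limma on log2(FPKM + 1) and log2(FPKM + 0.1), 7 without both control replicate 1 and knockdown replicate 3, and 1 by the criteria of the study; the range over fits leaving out a library was 7 to 13. In the same fits 14.9%, 4.001%, 20.1%, 20.0% and 6.38% of all genes tested were higher, and 9.61% by the criteria of the study. Genes lower numbered 1 with limma on log2(FPKM + 1) without a filter and 1 by the criteria of the study (2 to 3 when a library was left out), against 3.25% and 5.88% of all genes. Core genes called numbered 7 with DESeq2, 11 with library size alone, 2 with no filter, 11 and 10 with limma at the pseudocounts of 1 and 0.1, 2 without both libraries and 1 by the criteria of the study (2 to 5). The shares of all genes called in either direction were 14.1%, 23.2%, 9.55%, 33.6%, 33.5%, 15.1% and 15.5% in the same order. They were 13.9% to 18.0% when a library was left out, compared with 22.8% in the fit of the report. The shares in this paragraph rest on unlike numbers of genes: 31287 with DESeq2, 31319 with no filter and 11399 with filtered limma. Limma without a filter tested 30727 genes, compared with 18390 in the fit of the report. In numbers, DESeq2 called 4418 genes over all, compared with 4192 in the fit of the report. Cap genes called numbered 4 without both libraries and 0 by the criteria of the study (4 to 6). Associated genes called numbered 11 with limma without a filter (8.26% of all genes) and 5 by the criteria of the study (13 to 17). Over all genes, 2537 were called with limma without a filter, and 2648 to 3424 when a library was left out. Fits with fewer libraries test fewer samples; for the other settings the cause was not tested.

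The replicate block gave 15 subunit genes higher and 2 lower (10.7% and 13.0% of all genes), 14 of them shared with the fit without the block. Libraries with the same number did not deviate together (correlations 0.03, -0.04 and -0.02), so the numbers were not taken as pairs. PSMB9 changed sign without both libraries (log2 fold change -0.016). The log2 ratio of summed levels moved on the CPM scale to 0.10 for the core, 0.10 for the cap, 0.081 for all 46 genes and -0.19 for the immunoproteasome genes. The immunoproteasome sum ranged from -0.11 to 0.013 when a library was left out, with a change of sign without knockdown replicate 1 (0.013), and the ratio of PSMB10 to PSMB7 from -0.024 to 0.17, with a change of sign without knockdown replicate 3 (-0.024). Genes with low counts, PSMB9 and PSMB10 above all, have wide intervals.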
